A study of Mus musculus with 12 samples.

Results

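The 10 genes described here are mouse genes whose products work with or against Parkin at the mitochondrial surface: the kinase gene Pink1, the deubiquitinase genes Usp30, Usp15 and Usp8, the mitochondrial ubiquitin ligase gene Mul1, the Miro GTPase genes Rhot1 and Rhot2, and the porin genes Vdac1, Vdac2 and Vdac3. They were chosen by symbol and not by a cut on their measured values, though with earlier results of these data known. All 10 had a row among the 23457 rows of the deposited count table. All 10 also passed the filter on low counts that left 13050 tested genes. Polyadenylated RNA of the frozen ventricular apex was sequenced from 12 adult C57BL/6J hearts. The Parkin KO group held 6 hearts of floxed mice that carried MERCreMer and were induced as adults, and the noninduced group held 6 hearts of floxed mice without Cre. Both groups thus carried the floxed allele, and both were labelled as taken 9 to 10 weeks after tamoxifen. MERCreMer is a Cre recombinase flanked by mutated ligand-binding domains of the estrogen receptor, which tamoxifen admits to the nucleus. The promoter that drives it is not given in the sources used here, and the tissue characteristic reads whole heart where the protocol names the apex. MERCreMer is labelled in the Parkin KO group alone, so what the transgene does and what the loss of Parkin does cannot be told apart. The reads of Esr1 given later go against the label without Cre in noninduced libraries 1 and 3.

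Parkin is a cytosolic ubiquitin ligase that is idle until PINK1, a kinase, builds up on the outer membrane of a damaged mitochondrion. PINK1 is imported and degraded in healthy mitochondria. On depolarised ones it stays at the surface and phosphorylates both ubiquitin and Parkin, which then ubiquitinates outer membrane proteins, among them Miro GTPases and voltage-dependent anion channels (VDACs), and so marks the organelle for removal by mitophagy. Some deubiquitinases oppose this step by taking ubiquitin off mitochondrial proteins, and others act on Parkin itself. The adult heart is rich in mitochondria, and Parkin protein is scarce in it under resting conditions.

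The targeted gene, Parkin's own, is listed as Park2 and had few reads. In Parkin KO hearts 1 to 6 it had 25, 45, 36, 44, 30 and 24 reads, and in noninduced hearts 1 to 6 it had 24, 34, 31, 29, 39 and 45 reads. Its level was 2.22 ± 0.638 CPM (reads scaled to a common library size, with TMM factors) in Parkin KO hearts and 2.31 ± 0.510 CPM in noninduced ones (SD, n = 6 each). The groups overlapped, with a log2 fold change of -0.050 ± 0.208 (SE; edgeR, adjusted p = 0.930), so the count over the whole gene was not detectably lower in Parkin KO hearts. The interval, -0.49 to 0.39 on the log2 scale, does not include a drop by a factor of 1.5. The floxed part of the gene is not given in the sources used here, and reads from the rest of the gene enter the same count, so this count does not check the deletion.

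Libraries held 11610507 to 16884516 counted reads each, and 1 read was worth 0.0548 to 0.0948 CPM. The labels were also compared with Esr1, the gene to which sequence of the MERCreMer receptor domains can align. All 6 Parkin KO libraries, at 1553 to 4683 CPM of Esr1, lay above all 6 noninduced libraries, at 24.0 to 962 CPM. The libraries labelled noninduced 1 and noninduced 3 held 558 and 962 CPM, and the other noninduced libraries held at most 64.9 CPM. Parkin KO libraries 2, 5 and 6 held 495 to 634 reads on Y-linked genes. The library labelled noninduced 3 held 178, and the other 8 held at most 7. Xist, a gene expressed in female cells, stood at 0.704 to 5.25 CPM in Parkin KO 2, 5 and 6. It stood at 77.2 CPM in noninduced 3 and at 84.2 to 133 CPM in the other libraries. Noninduced 3 thus held both Y-linked reads and Xist, which do not settle its sex. Defining cardiomyocyte genes were present in every library, with a summed level of 8 markers of 79723 to 97417 CPM in Parkin KO hearts and 61657 to 90515 CPM in noninduced ones. Summed atrial markers ran from 158 to 1547 CPM in Parkin KO and from 121 to 5987 CPM in noninduced hearts, the highest being in noninduced libraries 5, 6 and 2, and 6 of 6 were lower in Parkin KO hearts at an unadjusted p under 0.05, where 5.54% of all tested genes were. At that p 2 of 7 macrophage and 1 of 7 smooth muscle and pericyte markers were also lower, 1 of 8 cardiomyocyte markers and the 1 tested adipocyte marker were higher, and none was in the other 4 lists. Hba-a1, a red blood cell marker, was at 0 in every library. No gene of any of 9 marker lists passed the test between groups described later. Fewer cells of a type and less RNA per cell cannot be told apart in such bulk samples.

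The genes lie on 8 chromosomes in GRCm38, the assembly also named mm10. Pink1 (chromosome 4, 138313409 to 138326307, minus strand) and Mul1 (chromosome 4, 138434671 to 138442265, plus strand) are near neighbours, with 108363 bases between them. Rhot1 (80209019 to 80267907) and Vdac1 (52360860 to 52389397) share chromosome 11 at a greater distance. Usp8 lies on chromosome 2 from 126707328 to 126759297, Usp30 on chromosome 5 from 114065461 to 114124720 and Usp15 on chromosome 10 from 123105006 to 123196995. Rhot2 lies on chromosome 17 from 25838457 to 25844851, Vdac2 on chromosome 14 from 21825238 to 21845879 and Vdac3 on chromosome 8 from 22577075 to 22593813. All 10 are annotated as protein-coding.

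Promoters of 8 of the 10 genes were found in RefSeq (GRCm38.p6), and Vdac2 and Vdac3 had no entry. In the 250 bases before the transcription start, 5 of the 8 (Usp8, Mul1, Usp30, Vdac1 and Rhot2) held CCGGAAG on either strand, a core shared by binding sites of ETS factors such as GABP, which is known for control of mitochondrial genes. Over all 32841 promoters of that length 6.91% held these letters, and 12.5% of those of tested genes did. The following 3 windows are shown because Rhot2 and Usp30 had the smallest p-values of the 10 genes and Usp8 the lowest fold change. They run 5′ to 3′ on the gene's strand, with CCGGAAG or its reverse complement in capitals.
Rhot2 (chr17:25844526-25844775, minus strand): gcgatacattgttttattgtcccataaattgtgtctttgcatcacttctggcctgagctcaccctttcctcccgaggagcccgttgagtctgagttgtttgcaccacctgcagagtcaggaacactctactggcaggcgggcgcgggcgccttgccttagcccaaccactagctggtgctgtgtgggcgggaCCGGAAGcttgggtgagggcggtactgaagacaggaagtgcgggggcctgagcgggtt
Usp30 (chr5:114100083-114100332, plus strand): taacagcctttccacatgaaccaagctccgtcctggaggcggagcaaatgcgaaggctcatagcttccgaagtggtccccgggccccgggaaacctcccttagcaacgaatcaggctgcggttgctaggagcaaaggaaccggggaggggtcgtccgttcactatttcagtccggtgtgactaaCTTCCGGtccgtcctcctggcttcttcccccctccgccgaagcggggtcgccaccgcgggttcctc
Usp8 (chr2:126707078-126707327, plus strand): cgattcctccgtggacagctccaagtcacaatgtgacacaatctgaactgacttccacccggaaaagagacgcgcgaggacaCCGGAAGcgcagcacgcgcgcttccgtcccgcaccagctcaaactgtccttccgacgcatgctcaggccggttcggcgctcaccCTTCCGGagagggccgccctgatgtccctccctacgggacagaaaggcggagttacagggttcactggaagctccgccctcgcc
Windows end at the start given by RefSeq. For Rhot2 and Usp30 that start lies inside the GENCODE genes given above, some of whose transcripts begin farther upstream. The windows of Rhot2 and Usp30 thus lie wholly inside those genes. The match lay 58 bases before the start in Rhot2 and 66 bases before it in Usp30, and Usp8 had 2, at 168 and 84 bases. The motif was thus found both where the log2 fold change was above 0 (Rhot2 and Usp30) and where it was below 0 (Usp8), and a match in these letters does not show that a factor is bound. Of 5 other motifs searched on both strands, GCGC and TGCGC with 1 base between them (the core of the NRF1 site) was in the Pink1 and Usp15 windows and in 7.58% of those of tested genes. AAGGTCA (a half-site of estrogen-related receptors) was in that of Vdac1 and in 2.86%, CACGTG (an E-box) in that of Mul1 and in 8.2%, TGACGT (part of the cyclic AMP response element) in those of Mul1 and Vdac1 and in 9.6%, and GGGCGG (an Sp1-type box) in 6 of 8 and in 57.2%. For Vdac1, which has 2 entries, a match in either was counted.

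Levels per transcript length were read from the authors' deposited FPKM. Vdac1, the main pore for metabolites in the outer membrane, was highest at 448 ± 43.2 FPKM in Parkin KO and 434 ± 39.8 FPKM in noninduced hearts (SD, n = 6 each, as for all means below). Pink1 came next, at 335 ± 33.9 FPKM in Parkin KO and 307 ± 51.3 FPKM in noninduced hearts. It stood above 97.9% of tested genes by mean FPKM. Next in order were Vdac2 (173 ± 11.98 FPKM in Parkin KO and 159 ± 19.5 FPKM in noninduced hearts), Rhot2 (97.9 ± 5.83 FPKM in Parkin KO and 85.3 ± 4.15 FPKM in noninduced hearts) and Vdac3 (65.0 ± 14.8 FPKM in Parkin KO and 58.7 ± 11.2 FPKM in noninduced hearts). Mul1 stood at 19.1 ± 1.25 FPKM in Parkin KO and 17.8 ± 2.29 FPKM in noninduced hearts.

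The lowest levels were those of Usp8 (10.4 ± 0.733 FPKM in Parkin KO and 11.0 ± 1.05 FPKM in noninduced hearts), Usp15 (9.20 ± 1.95 FPKM in Parkin KO and 7.80 ± 1.47 FPKM in noninduced hearts), Rhot1 (6.16 ± 1.04 FPKM in Parkin KO and 6.5 ± 0.923 FPKM in noninduced hearts) and Usp30 (6.68 ± 0.568 FPKM in Parkin KO and 5.96 ± 0.789 FPKM in noninduced hearts). Even these lay above at least 51.5% of tested genes. Usp8 and Usp15 overlapped in range in both groups. Within single hearts, Usp15 stood at 0.551 to 0.798 times the FPKM of Usp8 in noninduced and 0.586 to 1.03 times in Parkin KO hearts. Usp15 was thus the lower of them in every noninduced heart, but not in every Parkin KO heart. Rhot1 and Usp30 also overlapped in range in both groups. Which of them was higher varied between hearts, so their order is not resolved. The messenger RNA of the kinase that starts the pathway was at 17.5 ± 1.14 times the level of Mul1 in Parkin KO hearts and 17.6 ± 4.20 times in noninduced hearts.

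**Figure D1:**
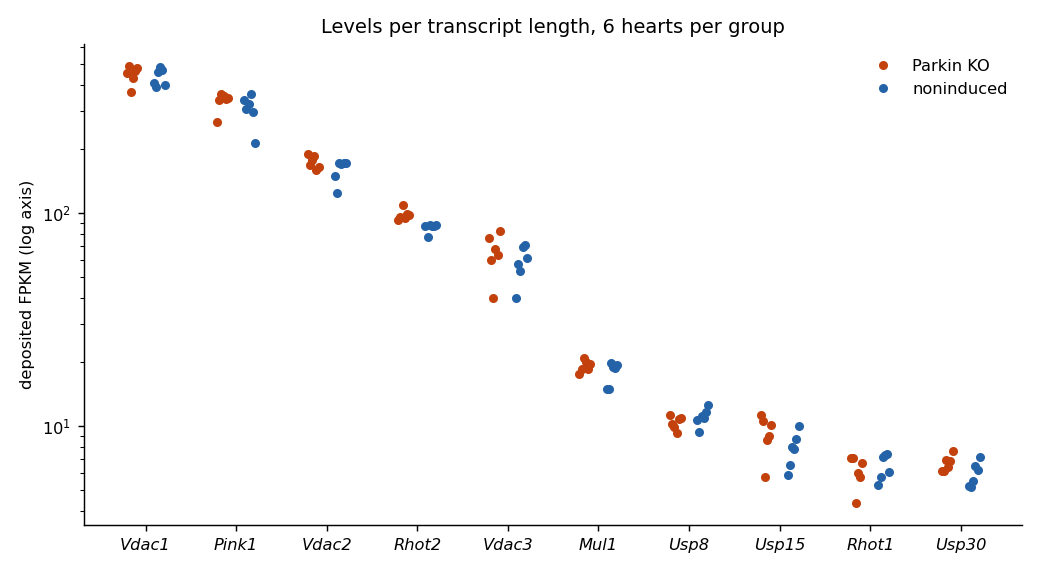
Deposited FPKM (log axis) of the 10 genes in each of 6 Parkin KO (orange) and 6 noninduced hearts (blue), ordered by mean level. Vdac1 and Pink1 stand highest, from 213 to 490 FPKM, and the deubiquitinases and Rhot1 lowest, from 4.34 to 12.5 FPKM.

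Between the groups the 10 genes were close in level. None of the 10 passed the quasi-likelihood test of edgeR, with p-values adjusted by Benjamini and Hochberg's method over all 13050 genes (adjusted p from 0.424 to 0.927), in which 0 genes passed (0%). At an unadjusted p under 0.05, 1 of the 10 was higher in Parkin KO hearts, Rhot2, and none was lower, where 11.4% of all tested genes lay under that p, 5.82% higher and 5.54% lower. The share among the 10 is near that of all genes. Of the calls under that p, 760 were higher and 723 lower on TMM scaling, 638 and 879 with RLE size factors, 695 and 968 in DESeq2, and 614 and 888 with mitochondrial DNA genes left out. Their log2 fold changes were above 0 for 8 genes and below 0 for Rhot1 and Usp8, with the same 8 above 0 under each of those scalings, where 52% of all tested genes lay above 0. The median was 0.10 on the log2 scale against 0.01 over all tested genes. For all 10, the 95% confidence interval lay within a 1.5-fold change in either direction, which held for 71% of tested genes. DESeq2 called 10 genes (0.0539%) and limma-voom 0, none of the 10 described here.

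**Figure D2:**
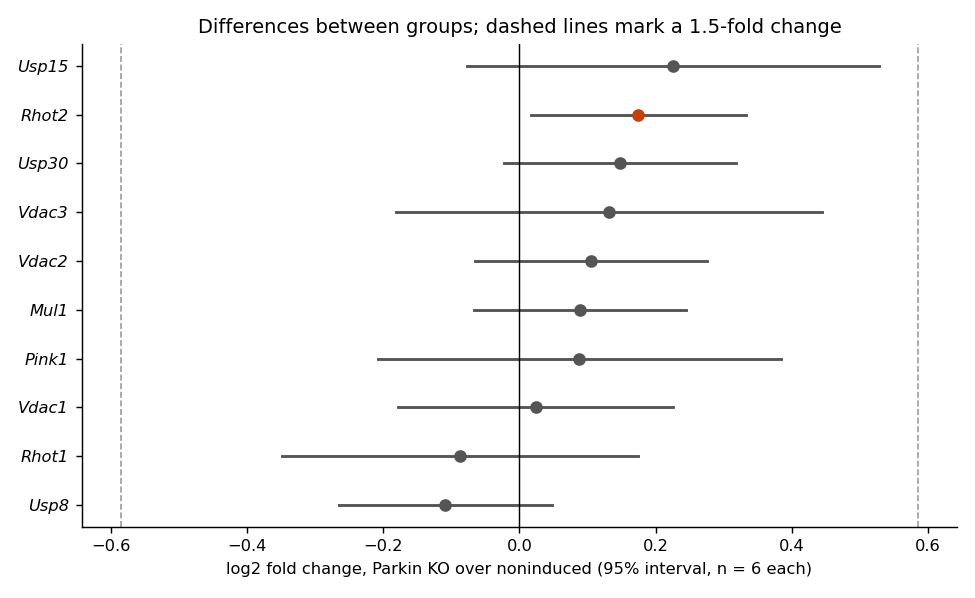
Log2 fold change of each gene, Parkin KO over noninduced hearts, with its approximate 95% confidence interval (n = 6 each); the orange point has an unadjusted p under 0.05 and dashed lines mark a 1.5-fold change. Every interval lies between the dashed lines, the widest bound being 0.53 for Usp15.

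Pink1, the kinase that recruits and activates Parkin, ran from 599 to 810 CPM in Parkin KO hearts, with a median of 771, and from 447 to 865 CPM in noninduced hearts, with a median of 757. The groups overlapped, and noninduced hearts held both the highest value and the lowest, that of noninduced 6. The log2 fold change was 0.088 ± 0.139 (SE; edgeR, adjusted p = 0.803). Without noninduced replicate 6 it was -0.023, and without Parkin KO replicate 1 it was 0.14. Noninduced 6 had the lowest cardiomyocyte marker sum (61657 CPM) and the highest fibroblast sum (1501 CPM), whose part in its low Pink1 was not tested. Within groups Pink1 varied by 0.27 log2 units (SD), about as much as the median tested gene (0.24).

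Usp30 is a deubiquitinase anchored in the outer mitochondrial membrane that removes ubiquitin placed there by Parkin. It had 161 to 327 reads per library. Usp30 ran from 16.4 to 19.97 CPM in Parkin KO hearts, with a median of 17.7, and from 15.3 to 17.9 CPM in noninduced hearts, with a median of 15.8. All 6 Parkin KO hearts lay above the noninduced median and 3 above every noninduced heart, but the groups overlapped. The log2 fold change was 0.15 ± 0.080 (SE), a difference of 10.8% with an interval from -1.58% to 24.7% (edgeR, adjusted p = 0.461). An exact two-sided permutation test of its CPM values gave an unadjusted p = 0.0260, where 6 against 6 libraries allow 0.00216 at the smallest. Exons of Alkbh2 and Svop on the opposite strand cover 8.1% of its exon bases, and the libraries keep no strand.

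Usp15, a deubiquitinase reported in human cells to counter Parkin on mitochondria, ran from 18.0 to 35.1 CPM in Parkin KO hearts, with a median of 29.3, and from 20.9 to 29.2 CPM in noninduced hearts, with a median of 24.5. Parkin KO hearts held both the highest values and the lowest one, that of Parkin KO 3. The log2 fold change was 0.23 ± 0.142 (SE; edgeR, adjusted p = 0.518). It was 0.32 without Parkin KO replicate 3, with an unadjusted p of 0.00984 (edgeR), and adjusted p stayed at 0.387 or above in every alternative run.

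Usp8, an endosomal deubiquitinase that in human cells takes ubiquitin chains off Parkin itself, had a fold change below 0. Its levels were 37.7 to 46.1 CPM in Parkin KO hearts, with a median of 43.9, and 42.6 to 49.96 CPM in noninduced hearts, with a median of 46.1. No Parkin KO heart lay above the noninduced median. The log2 fold change was -0.11 ± 0.073 (SE; edgeR, adjusted p = 0.544), and an exact permutation test gave an unadjusted p = 0.0801. Relative to Usp8, Usp30 stood at 0.646 ± 0.0646 in Parkin KO and 0.539 ± 0.0417 in noninduced hearts as a ratio of FPKM, and Usp15 at 0.883 ± 0.161 in Parkin KO and 0.704 ± 0.0829 in noninduced hearts. Both ratios overlapped between the groups.

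Mul1, a ubiquitin and SUMO ligase embedded in the outer membrane that acts on mitofusin alongside Parkin, ran from 63.6 to 76.3 CPM in Parkin KO hearts, with a median of 70.5, and from 60.0 to 74.9 CPM in noninduced hearts, with a median of 65.4. The groups overlapped, and the highest value in each came from replicate 3. Its log2 fold change was 0.09 ± 0.073 (SE; edgeR, adjusted p = 0.614). It was 0.047 without noninduced replicate 2, 0.056 without noninduced replicate 1 and 0.051 without Parkin KO replicate 3. The interval of the difference ran from -4.57% to 18.5%. Pink1 and Mul1, neighbours on chromosome 4, had a correlation of log2 CPM over the 12 hearts of r = 0.22 (Spearman 0.22; permutation p = 0.518 and 0.485, adjusted p = 0.804 and 0.840 over 45 pairs of the 10 genes), and of 0.11 without the 2 hearts farthest in Pink1. It was 0.84 within Parkin KO and -0.13 within noninduced hearts.

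The Miro proteins are outer membrane GTPases that tie mitochondria to motor proteins, and Parkin and PINK1 are known to remove them from damaged mitochondria. In the apex Rhot2 was the main form, at 16.5 ± 4.44 times the FPKM of Rhot1 in Parkin KO and 13.3 ± 1.83 times in noninduced hearts. The ratio was highest, 25.1, in Parkin KO 3. It ran from 13.1 to 25.1 in Parkin KO and from 11.8 to 16.4 in noninduced hearts.

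Rhot2 ran from 248.8 to 294 CPM in Parkin KO hearts, with a median of 261, and from 220 to 265 CPM in noninduced hearts, with a median of 228. All 6 Parkin KO hearts lay above the noninduced median, and 5 of 6 noninduced hearts lay below every Parkin KO heart. The exception was noninduced 1, which held 558 CPM of Esr1 and had the highest GC slope of its group (0.104, a measure described later). The highest heart, Parkin KO 3, had the highest GC slope of all (0.217), and the part of either value was not tested. Rhot2 was 12.9% higher in Parkin KO hearts by the fit, with an interval from 1.18% to 25.9% and a log2 fold change of 0.17 ± 0.074 (SE; edgeR, unadjusted p = 0.0323, adjusted p = 0.424). The unadjusted p was under 0.05 in 15 of 28 alternatives and ran up to 0.133 in the others, with 0.0620 with RLE size factors and 0.0568 with mitochondrial DNA genes left out. An exact permutation test of the CPM values gave an unadjusted p = 0.0152, and this test was not run over all genes. In the deposited FPKM its groups did not overlap, at 92.4 to 109 FPKM in Parkin KO and 76.9 to 87.4 FPKM in noninduced hearts, as in 0.261% of tested genes (0.0844% with Parkin KO higher). There limma on log2(FPKM + 1) gave a log2 fold change of 0.20 ± 0.064 (SE; unadjusted p = 0.00905, adjusted p = 0.506). Without noninduced replicates 1 and 3 the edgeR log2 fold change was 0.22 (edgeR, adjusted p = 0.522), and among libraries with under 50 reads on Y-linked genes it was 0.19 (adjusted p = 0.844). Exons of Wdr90 and of the gene model Gm20683 cover 31.2% of its exon bases on the same strand, so part of its count is uncertain.

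Rhot1 ran from 17.7 to 30.5 CPM in Parkin KO hearts, with a median of 26.1, and from 23.6 to 30.7 CPM in noninduced hearts, with a median of 27.4. Parkin KO 3 was the lowest heart. The log2 fold change was -0.09 ± 0.122 (SE; edgeR, adjusted p = 0.773) and lay at -0.15 without Parkin KO replicate 2 and at -0.013 when Parkin KO replicate 3 was left out. The Miro genes had fold changes of opposite sign, and their difference was not tested.

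VDACs form the main pore of the outer membrane and are among the most heavily ubiquitinated targets of Parkin in cultured cells. Vdac1 made up 65.2 ± 2.42% of the summed FPKM of the 3 genes in Parkin KO and 66.6 ± 1.996% in noninduced hearts. Vdac2, which also holds the death protein BAK at the membrane, made up 25.4 ± 2.92% in Parkin KO and 24.4 ± 1.92% in noninduced hearts, and Vdac3 9.38 ± 1.64% in Parkin KO and 8.98 ± 1.38% in noninduced hearts. The make-up of the pool differed by less than the spread between hearts.

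Vdac1 ran from 599 to 834 CPM in Parkin KO hearts, with a median of 737, and from 602 to 765 CPM in noninduced hearts, with a median of 728. The range of the noninduced hearts lay inside that of the Parkin KO hearts. Its log2 fold change of 0.024 ± 0.095 (SE) was the nearest to 0 of the 10 genes (edgeR, adjusted p = 0.927), with an interval from -11.7% to 17.0%. It was -0.065 among libraries with under 50 Y-linked reads and -0.039 with a term for Y-linked reads, so no direction can be given.

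Vdac2 ran from 237 to 285 CPM in Parkin KO hearts, with a median of 267, and from 206 to 268 CPM in noninduced hearts, with a median of 246. The groups overlapped, and the lowest heart was noninduced 2. The log2 fold change was 0.10 ± 0.080 (SE; edgeR, adjusted p = 0.587) and 0.21 among libraries with under 50 Y-linked reads (adjusted p = 0.844). Without noninduced replicate 2 it was 0.043.

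Vdac3, the least abundant porin, ran from 50.1 to 102 CPM in Parkin KO hearts, with a median of 82.1, and from 57.1 to 84.7 CPM in noninduced hearts, with a median of 76.6. The lowest values were those of Parkin KO 3 and noninduced 1. With a log2 fold change of 0.13 ± 0.146 (SE; edgeR, adjusted p = 0.707), it had the widest spread of the 10 genes, 0.30 log2 units (SD) within groups. Its log2 fold change stood at 0.23 without Parkin KO replicate 3, 0.051 without either Parkin KO replicate 6 or noninduced replicate 1, and 0.014 without noninduced replicates 1 and 3. Pseudogenes match it closely: Vdac3-ps1 over 60.2% of its transcript and Gm7591 over 60.1%, while Gm7832 matches Vdac2 over 45.0%. In the longest matching stretch the identity was 99.2%, 96.7% and 97.0%, in that order. The treatment of reads with several hits is not given in the sources used here, so reads could be lost from or shared with these copies.

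**Figure D3:**
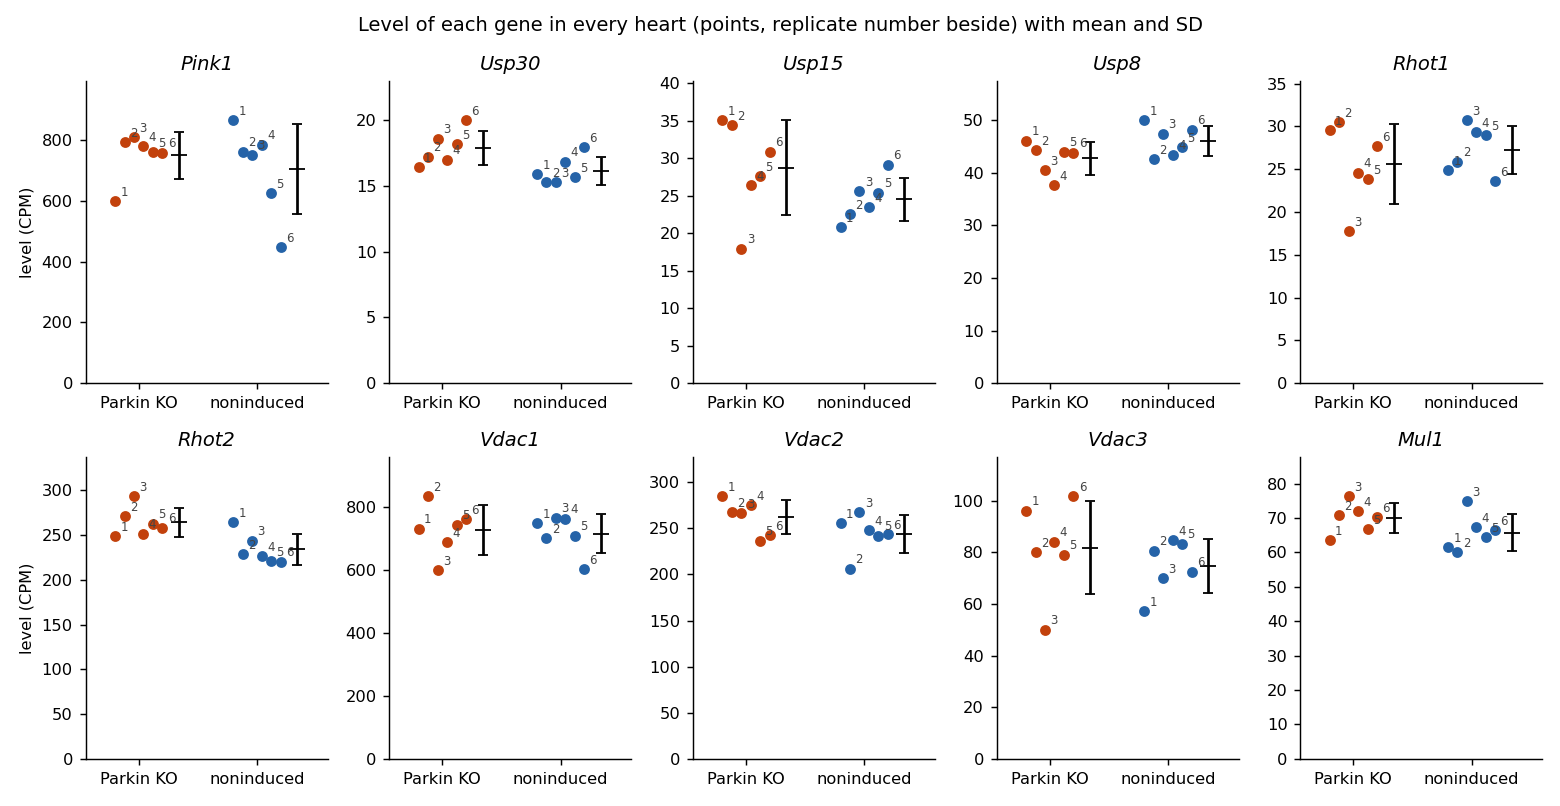
CPM of the 10 genes in each of 6 Parkin KO (orange) and 6 noninduced hearts (blue), with the replicate number beside each point and the mean and SD at the right of each group. In CPM the groups overlap for every gene, and Parkin KO 3 is the lowest heart for Usp15, Rhot1, Vdac1 and Vdac3.

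The 10 genes split by how steady they were from heart to heart. Usp30, Rhot2, Usp8, Mul1, Vdac2 and Vdac1 varied within groups by 0.10 to 0.15 log2 units (SD), all within the lowest 17.1% of tested genes. Rhot1, Pink1, Usp15 and Vdac3 varied by 0.23 to 0.30 log2 units, near or above the median tested gene. In CPM the groups overlapped for all 10 genes, where the groups of 0.345% of tested genes did not.

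Usp15, Rhot1 and Vdac3, whose transcripts have the lowest GC content of the 10 (42.3%, 43.8% and 39.1%, against a median of 50.1% over tested genes), varied across hearts with the base composition of the library. For each library a GC slope was taken, the change in log2 level over all tested genes per 10 points of transcript GC relative to the mean library. The 10 genes are among those over which it was taken. It ran from -0.140 in Parkin KO 1 to 0.217 in Parkin KO 3 among Parkin KO libraries, and from -0.0437 to 0.104 in noninduced ones, where noninduced 1 was highest. The level of Usp15 had r = -0.92 with this slope over the 12 libraries (Spearman -0.84; permutation p = 2.0e-05 and 0.00134, adjusted p = 0.000400 and 0.0268 over 20 relations), r = -0.82 without the 2 libraries of most extreme slope, and r = -0.98 within Parkin KO and -0.82 within noninduced libraries. For Vdac3 r was -0.87 (Spearman -0.67; permutation p = 0.000410 and 0.0206, adjusted p = 0.00410 and 0.187), -0.70 without those 2 libraries, and -0.92 within Parkin KO and -0.73 within noninduced libraries.

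For Rhot1 r was -0.80 (Spearman -0.58; permutation p = 0.00343 and 0.0518, adjusted p = 0.0229 and 0.207) and -0.50 without the 2 libraries of most extreme slope, so this relation rests on them. Within Parkin KO libraries it was -0.96 and within noninduced ones -0.40. The other 7 genes did not pass in this family, among them Usp8 (46.0% GC) and Vdac2 (47.2% GC) with r of -0.29 and -0.08, and Pink1 (59.0% GC) with r of 0.43. Rhot2 (55.2% GC) had r = 0.42 over all 12 libraries, and within each group r was larger for both Rhot2 and Pink1. For Rhot2 r was 0.77 within Parkin KO and 0.84 within noninduced libraries, and for Pink1 0.62 within Parkin KO and 0.65 within noninduced libraries, given as descriptions of 6 libraries each. With per-library offsets for GC, chosen after seeing the data, the SE of the log2 fold change was 0.109 for Usp15 and 0.108 for Vdac3, and 0.097 for Rhot1. The fold changes then were 0.19, 0.10 and -0.13, and none passed (edgeR, adjusted p = 0.452, 0.679 and 0.560). No relation with the share of counts from mitochondrial DNA passed, for any of the 10 genes. That share ran from 5.17 to 9.53% in Parkin KO and from 6.65 to 16.7% in noninduced libraries.

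**Figure D4:**
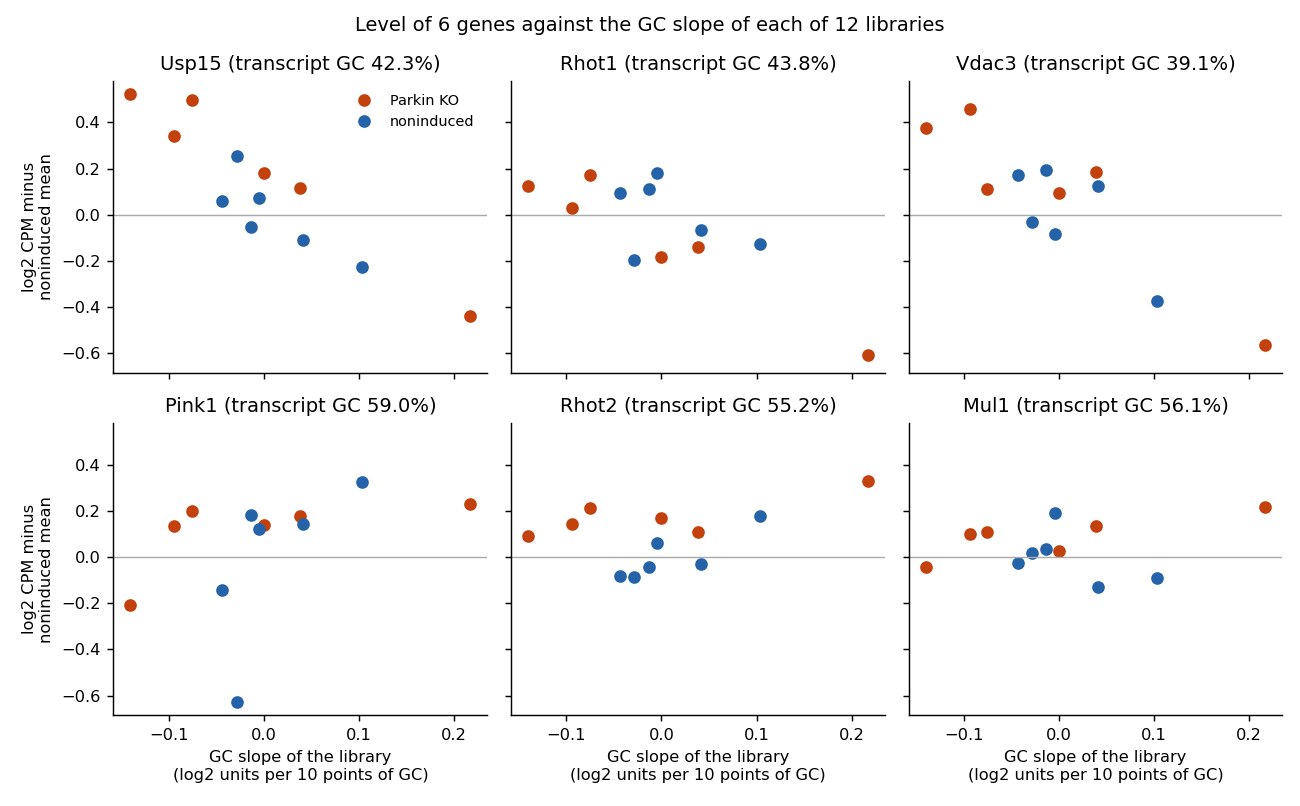
Level of 6 genes in each library (log2 CPM minus the noninduced mean) against the GC slope of that library, for 6 Parkin KO (orange) and 6 noninduced libraries (blue). Usp15, Rhot1 and Vdac3, of low transcript GC, fall with the slope (r = -0.92, -0.80 and -0.87), and Pink1, Rhot2 and Mul1 do not (r = 0.43, 0.42 and 0.23).

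Over all 45 pairs of the 10 genes, 0 correlations passed after adjustment (Pearson, permutation test with 100000 resamples). The closest pair was Rhot1 and Vdac1, with r = 0.78 (Spearman 0.78; permutation p = 0.00174 and 0.00384, adjusted p = 0.0783 and 0.173), 0.63 without the 2 hearts farthest in Rhot1, and 0.90 within Parkin KO and 0.71 within noninduced hearts. Next was Usp15 with Vdac3, at r = 0.76 (Spearman 0.52; permutation p = 0.00428 and 0.0880, adjusted p = 0.0963 and 0.761), 0.50 without the 2 hearts farthest in Usp15, and 0.88 within Parkin KO and 0.31 within noninduced hearts.

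The other genes of the pathway were read from 7 lists of 84 genes, of which 83 were tested. None passed over all genes, and 8 were higher and 2 lower at an unadjusted p under 0.05 (12.05% in all, against 11.4% of tested genes). The median log2 fold change over these 83 genes was 0.05. Genes that import, cleave or stabilise PINK1 had 14 of 14 tested members with a fold change above 0, 4 of them at an unadjusted p under 0.05, and a median of 0.15. Over all tested genes 52% lay above 0 and 5.82% were higher at that p. Of the 14 genes, Timm17a, a subunit of the inner membrane translocase, averaged 71.9 ± 8.10 CPM in Parkin KO hearts and 58.5 ± 9.36 CPM in noninduced ones (log2 fold change 0.30 ± 0.110, SE). Lonp1, the matrix protease, averaged 192 ± 10.6 CPM in Parkin KO hearts and 166 ± 19.7 CPM in noninduced ones (0.20 ± 0.085). Tomm7 encodes a small translocase subunit that PINK1 needs to stay on the outer membrane. It was not among the 4 (edgeR, unadjusted p = 0.176). Tomm7 averaged 42.3 ± 2.47 CPM in Parkin KO hearts and 37.2 ± 8.45 CPM in noninduced ones (0.18 ± 0.129). The cardiomyocyte marker sums given above were also higher at the median in Parkin KO hearts, 89526 against 78354 CPM, and their part in this was not tested.

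Genes that conjugate ubiquitin with Parkin or extract its products had 1 of 14 members under that p, the chaperone-linked ligase gene Stub1, at 39.5 ± 5.69 CPM in Parkin KO hearts and 31.4 ± 5.93 CPM in noninduced ones (log2 fold change 0.33 ± 0.128, SE). Exons on the opposite strand cover 42.3% of its exon bases, and Jmjd8 overlaps it. Ube2d2a, a ubiquitin-conjugating enzyme, was at -0.34 ± 0.163. Among 12 other deubiquitinases 0 were under that p, 5 were above 0 and 7 below, with a median of -0.04. Those of smallest p were Usp36, a nucleolar enzyme (-0.24 ± 0.115), and the proteasome-bound Usp14 (-0.29 ± 0.15, with 26.0% of its exon bases shared with Thoc1 on the opposite strand).

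Other outer membrane substrates had 10 of 15 members above 0 and a median of 0.05. Cisd1, an iron-sulfur protein that Parkin ubiquitinates readily, averaged 112 ± 11.3 CPM in Parkin KO hearts and 87.3 ± 16.8 CPM in noninduced ones (log2 fold change 0.35 ± 0.121, SE). Bak1, the pore-forming death protein, averaged 37.4 ± 6.13 CPM in Parkin KO hearts and 52.2 ± 19.3 CPM in noninduced ones (-0.48 ± 0.193), with 25.5% of its exon bases shared with Ggnbp1 on the opposite strand. Mfn2, the mitofusin that PINK1 and Parkin act on in the heart, was at 0.08 ± 0.084, and Hk2, a hexokinase docked on VDAC, at 0.22 ± 0.120. In these 4 genes the groups overlapped.

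Of 9 other ubiquitin ligases at the outer membrane, 1 was under that p: Siah1a, at 8.37 ± 0.615 CPM in Parkin KO hearts and 6.86 ± 0.765 CPM in noninduced ones (0.29 ± 0.101, SE). Fbxl4, an F-box protein that restrains mitophagy, was at 0.21 ± 0.126. Partners of Miro had 0 of 8 tested members under that p and a median of -0.01, with the motor adaptor gene Trak2 at -0.13 ± 0.089 and the dynein heavy chain gene Dync1h1 at 0.12 ± 0.104. Snph had too few reads to test.

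Partners of VDAC had 2 of 11 members under that p. Slc25a4, the heart's ADP/ATP carrier, averaged 3611 ± 185 CPM in Parkin KO hearts and 2908 ± 558 CPM in noninduced ones (0.31 ± 0.123, SE). Ppif, which encodes cyclophilin D of the permeability transition pore, averaged 273 ± 30.9 CPM in Parkin KO hearts and 364 ± 132 CPM in noninduced ones (-0.42 ± 0.183), and 18.3% of its exon bases are shared with an antisense gene. In edgeR's quasi-likelihood test the adjusted p was 0.417 or above for every gene named from the 7 lists.

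**Figure D5:**
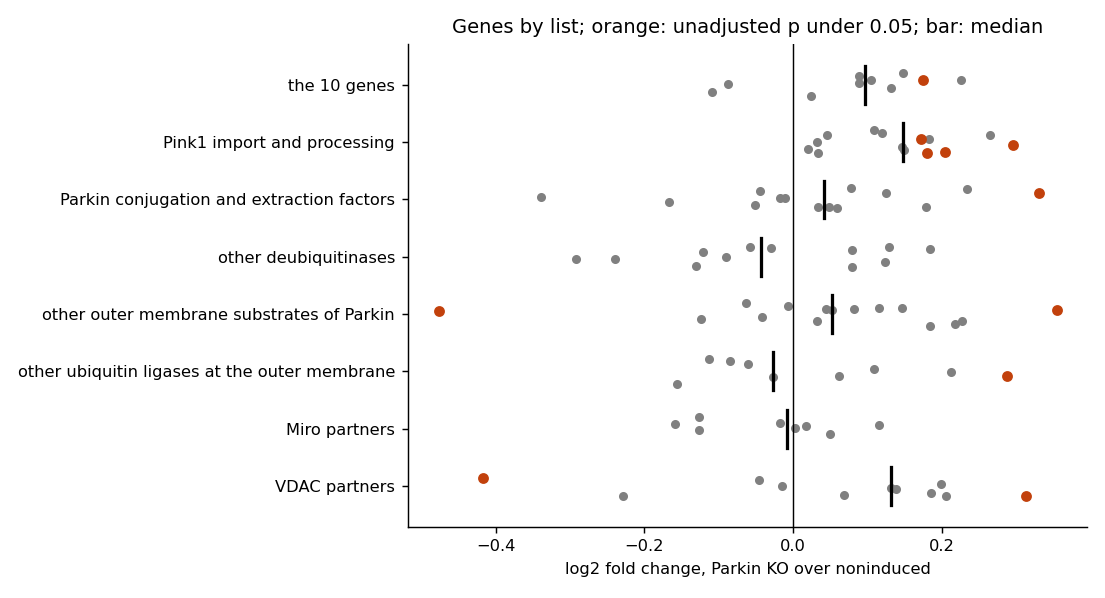
Log2 fold change (Parkin KO over noninduced, n = 6 each) of the 10 genes and of the 83 tested genes of 7 pathway lists; orange points have an unadjusted p under 0.05 and bars mark list medians. All 14 genes of PINK1 import and processing lie above 0, and the other lists lie on both sides of it.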

How the data were processed

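Per the labels' protocols, polyadenylated RNA was made into unstranded libraries read from 1 end. The submitters' processing notes name build mm10 and the tools HTSeq, Bowtie2, Cufflinks 2.1 and TopHat2 2.0.10. The deposited counts are whole reads per gene symbol, and the deposited FPKM values are the authors' own. The sources used here give neither the annotation nor the counting mode. Columns headed wt were taken as the noninduced hearts of the same number.

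Counts were fitted in R 4.3.3 with edgeR 4.0.16 (TMM, filterByExpr, glmQLFit and glmQLFTest, two-sided, group term only), with Benjamini-Hochberg adjustment at 0.05. Standard errors and 95% intervals were derived from the F statistic and are approximate. Alternatives used DESeq2 1.42.0, limma 3.58.1 on voom values and on log2(FPKM + 1), other normalizations and filters, and other sets of libraries. FPKM tests kept genes at 1 FPKM or more in 6 libraries, and left out 4 genes listed at 0 FPKM beside over 1000 reads. On data simulated for the Parkin KO against noninduced comparison (13050 genes, 200 changed), the edgeR code recovered 45% of 1.5-fold and 89% of 2-fold changes.

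The members and lists were chosen with earlier results of these data known, and the overlap of FPKM ranges was looked at after the other results. From each pathway list the 2 genes of smallest p were named, with Mfn2, Hk2, Slc25a4 and Tomm7 whatever their p. GC content is that of the longest GENCODE M21 transcript and was had for 99.2% of tested genes. Other transcripts counted as similar at 90% identity or more over at least 50 bases. Nothing in the labels says more of how hearts were paired or batched. The p-values of the group tests set the difference between groups against the spread between these hearts. Sex is not in the labels used here, and libraries were split by reads on Y-linked genes. With 178 such reads, noninduced 3 fell among those with 50 or more, beside Parkin KO 2, 5 and 6, though it also held Xist. The set with under 50 was thus Parkin KO 1, 3 and 4 against noninduced 1, 2, 4, 5 and 6. Libraries with Y-linked reads were therefore not balanced between the groups.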

Additional observations from a re-analysis of the deposited data

Results flagged for a closer look

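Pink1 in Parkin KO 1 stood apart from its group. It was at 598.5 CPM there, against 758 to 810 CPM in the other 5 Parkin KO hearts, a gap of 0.756 of the group's range, over Dixon's 95% critical value for 6 samples. Of 20 groups of 6 hearts (10 genes in 2 groups) this was the 1 such case, and chance gives about 1 in 20. The same library had the most negative GC slope of all, -0.140, and atrial marker sums of 1547 CPM, against 158 to 481 CPM in the other Parkin KO hearts. Their part in the low value was not tested. Without Parkin KO replicate 1 the log2 fold change of Pink1 was 0.14.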

How the results depend on the processing

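Of 280 member fold changes over 28 alternatives, 275 kept their sign and 0 passed (smallest adjusted p 0.351). The other 5 had the opposite sign: Vdac1 at -0.065 among libraries with under 50 Y-linked reads and -0.039 with a term for Y-linked reads, and on leaving out 1 library, where Vdac1 ran from -0.030 to 0.062 and Pink1 from -0.023 to 0.14. Rhot2 was under an unadjusted p of 0.05 in 15 of the 28, with p from 0.00238 to 0.133. The number of the 10 genes under that p was 0 with RLE size factors, without noninduced replicates 2 and 5, among libraries with under 50 Y-linked reads, with a term for Y-linked reads, with mitochondrial DNA genes left out and with GC offsets plus the replicate block, and 2 (Rhot2 and Usp15) without Parkin KO 3 and noninduced 1. On leaving out 1 library it ran from 0 to 1, and the 1 without Parkin KO 3 was Usp15. Over all genes, DESeq2 called 10, edgeR called 1 without noninduced replicates 1 and 3, and the other fits 0. Genes under an unadjusted p of 0.05 numbered 946 without noninduced replicates 2 and 5, 628 among libraries with under 50 Y-linked reads and 866 without Parkin KO 3 and noninduced 1, and ran from 932 without noninduced 2 to 2131 without noninduced 4 on leaving out 1 library, with 944 without Parkin KO 6 and 972 without noninduced 1. GC offsets and the set without Parkin KO 3 and noninduced 1 were chosen after seeing the data. Same-numbered hearts did not deviate together in every pair (correlations -0.10 to 0.17). Such correlations cannot show whether the hearts were paired, and the labels name no pairing. With the replicate block 1700 genes were under that p, 0 passed, and the log2 fold change of Rhot2 was 0.18. The causes were not tested.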
